A study of Mus musculus with 8 samples.

Results

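The satellite cell identity genes described here are 9 genes, Pax7, Pax3, Six4, Msc, Sdc3, Sdc4, Vcam1, Cd34 and Calcr, taken by symbol from the 42391 gene entries of the raw count matrix, and all 9 symbols were found there. RNA was sequenced from 8 mouse samples, 2 replicates each of control and Septin9-deficient C2C12 cells and of control and Septin9-deficient primary myoblasts. Controls, labelled WT, carried a non-targeting siRNA, so every sample had been transfected. C2C12 cells, an immortalized mouse myoblast line, had spent 12 h in low-serum differentiation medium and were collected 60 h after transfection with 50 nM siRNA (100 nM during the initial 5 h). Primary myoblasts, grown out of digested hindlimb muscle of 5 weeks old mice and pre-plated on collagen to remove fibroblastic cells, were collected 48 h after transfection under proliferative conditions. No strain is given for the mice, and the replicates of each cell type came from 2 independent experiments. Because cell type, medium, differentiation time and collection time all differ between C2C12 cells and primary myoblasts, their effects cannot be told apart.

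Satellite cells are the stem cells of skeletal muscle. They lie between the myofibre and its basal lamina, are largely quiescent in resting muscle, and after injury become cycling myoblasts that differentiate and fuse. The paired box factor Pax7 marks them and is lost as myoblasts differentiate. Quiescent satellite cells are further recognised by surface molecules and receptors, several of which are reduced once the cells are activated and cultured. Septin9 is a subunit of the septin cytoskeleton.

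Septin9 itself was lower in all 4 Septin9-deficient samples. In C2C12 cells it stood at 409 and 435 CPM (read counts scaled to library size, with TMM over the 8 samples) in the controls and at 147 and 185 CPM in the Septin9-deficient samples, a log2 fold change of -1.36 ± 0.08 (SE, n = 2 against 2, adjusted p = 5.113e-09 by the quasi-likelihood test of edgeR, blocked by replicate). In primary myoblasts it stood at 375 and 473 CPM in the controls and at 208 and 159 CPM in the Septin9-deficient samples, a log2 fold change of -1.21 ± 0.15 (SE, adjusted p = 0.000134 by the same edgeR test). Between 20898611 and 27223414 reads were counted per sample, at which 3 counts correspond to 0.11 to 0.143 CPM. The markers went partly against the state the labels give. The 11 differentiation genes from Myog to Ttn summed to 13760 and 3955 CPM in the control primary myoblasts, labelled as proliferating, and to 116.5 and 258.8 CPM in the control C2C12 cells. The 8 cell cycle markers from Mki67 to Birc5 summed to 801.8 and 998.4 CPM in those primary myoblasts. In the control C2C12 cells they summed to 1610 and 812.7 CPM. Between the controls 0 of the 8 had an adjusted p under 0.05 by edgeR, against 7463 of all 17918 genes tested. Their median log2 difference, primary myoblasts minus C2C12 cells, was -0.40, and 0 of the 8 were positive. The 7 skeletal myoblast markers summed to between 1289 and 2334 CPM in the C2C12 samples and between 4015 and 6600 CPM in the primary myoblast samples, so these markers were present in both cultures.

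Promoter sequences, from 250 bases before to 50 after the transcription start in the RefSeq annotation of GRCm38.p6, were at hand for 6 of the 9 genes, and those of Pax7, Cd34 and Sdc4 are shown because the results below turn on these genes. Capitals mark GGGCGG, the GC box that Sp1 family factors recognise, on either strand, where the other strand reads CCGCCC. All are written 5′ to 3′ on the strand of the gene. The Pax7 promoter lies at chr4:139832919-139833218 on the minus strand, that of Cd34 at chr1:194938571-194938870 on the plus strand and that of Sdc4 at chr2:164443139-164443438 on the minus strand.
Pax7: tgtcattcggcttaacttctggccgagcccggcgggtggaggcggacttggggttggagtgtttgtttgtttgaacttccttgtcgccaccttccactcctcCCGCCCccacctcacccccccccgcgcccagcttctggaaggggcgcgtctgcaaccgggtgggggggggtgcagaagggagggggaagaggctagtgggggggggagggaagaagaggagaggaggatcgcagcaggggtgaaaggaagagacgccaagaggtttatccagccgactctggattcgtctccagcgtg
Cd34: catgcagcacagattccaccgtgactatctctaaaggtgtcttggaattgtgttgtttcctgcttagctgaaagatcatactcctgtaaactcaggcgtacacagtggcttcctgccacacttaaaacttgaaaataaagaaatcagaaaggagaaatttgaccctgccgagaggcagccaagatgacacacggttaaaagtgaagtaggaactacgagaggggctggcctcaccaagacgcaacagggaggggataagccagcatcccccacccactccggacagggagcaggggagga
Sdc4: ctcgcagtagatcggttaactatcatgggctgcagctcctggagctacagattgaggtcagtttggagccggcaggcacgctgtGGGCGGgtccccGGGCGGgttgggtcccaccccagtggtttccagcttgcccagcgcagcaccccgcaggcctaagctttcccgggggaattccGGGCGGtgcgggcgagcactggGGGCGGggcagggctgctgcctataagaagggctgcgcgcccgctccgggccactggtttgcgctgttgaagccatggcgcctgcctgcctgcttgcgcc
The Pax7 promoter held 1 GC box and the Sdc4 promoter 4, whereas these letters are not in the Cd34 window. Of 32851 RefSeq promoters of the same length, 35.7% held at least 1. The Pax7, Cd34 and Sdc4 promoters held 17, 7 and 22 CpG dinucleotides, against a median of 7 over all promoters, and Sdc3 had the most of the 6 genes with 44. Neither the E-box CAGCTG, which MyoD can bind and which 16.3% of promoters held, nor TATAAA, held by 13.6%, occurred in any of the promoters of the 6 genes on either strand. TCAGGTT, a sequence bound by Six4 and held by 4.07% of promoters, occurred in 1 of the 2 Six4 promoters, once. These matches describe the letters of the window and were not tested against expression.

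The genes differed widely in level. To compare genes, CPM were divided by the length of the union of their exons in kilobases (FPKM). In control C2C12 cells Sdc4 was highest at 71.1 FPKM on average (70.9 and 71.3), followed by Sdc3 at 32.0 FPKM (31.9 and 32.2). Vcam1 at 17.7, Pax7 at 16.4 and Cd34 at 12.3 FPKM came next, and the replicate ranges of neighbours among these 3 genes overlapped. Six4 followed at 6.72 FPKM and Msc at 0.196 FPKM, and Pax3 and Calcr had no count. In control primary myoblasts Sdc4 was again highest at 108 FPKM (90.7 and 126), ahead of Sdc3 at 32.8, Pax7 at 15.2, Vcam1 at 11.04, Six4 at 4.46 and Cd34 at 2.21 FPKM. Cd34 ranged from 0.654 to 3.76 FPKM there and overlapped Pax3 at 0.650 FPKM, and Msc and Calcr were at 0.0230 and 0.0102 FPKM. The order in the middle depended on the length used. With the longest transcript as the length, Vcam1 at 38.4 and Cd34 at 29.2 FPKM stood above Pax7 at 16.4 FPKM in control C2C12 cells, and Vcam1 at 24.0 FPKM stood above Pax7 at 15.2 FPKM in control primary myoblasts.

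**Figure D1:**
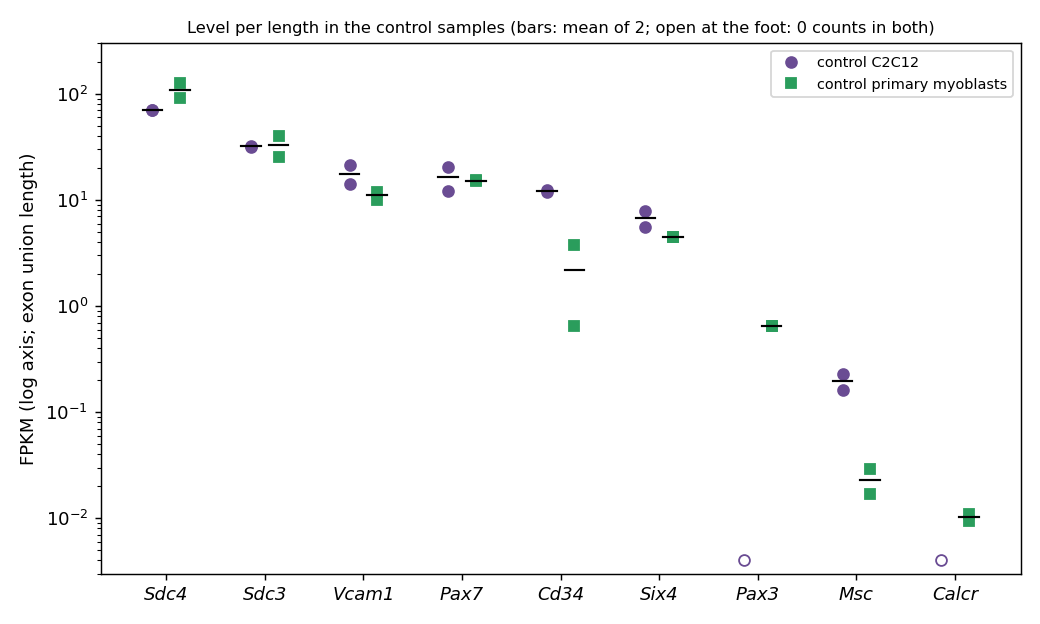
Level per exon length (FPKM, log axis) of the 9 genes in the 2 control samples of each cell type, with the mean as a bar and genes without any count drawn open at the foot. Sdc4 stands highest at 71.1 and 108 FPKM, and Pax3 and Calcr have no count in control C2C12 cells.

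Pax7, the factor required to maintain satellite cells after birth (chr4:139737062-139833528, minus strand, GRCm38), was at a like mean level in both control cultures and lower after Septin9 siRNA in primary myoblasts. In control C2C12 cells it stood at 71.4 CPM in replicate 1 and 120.2 CPM in replicate 2, and in Septin9-deficient C2C12 cells at 79.9 and 116 CPM. The groups overlapped, replicate 2 lay above replicate 1 in both, and the log2 ratio of Septin9-deficient to control was 0.16 in pair 1 and -0.05 in pair 2. In primary myoblasts Pax7 stood at 87.9 and 90.5 CPM in the controls and at 68.2 and 63.3 CPM in the Septin9-deficient samples. These groups did not overlap, and the log2 ratios were -0.37 and -0.51. The fitted log2 fold change was 0.05 ± 0.07 (SE, adjusted p = 0.8062, edgeR) in C2C12 cells and -0.44 ± 0.11 (SE, adjusted p = 0.02214, edgeR) in primary myoblasts. The change in primary myoblasts stayed under the 1.5-fold threshold, a log2 fold change of 0.585. Its adjusted p was 0.07281 with RLE size factors, 0.06029 with library size alone, 0.2136 with DESeq2 and 1 without the replicate block. It was 0.001403 with DESeq2 on the batch-corrected counts of the authors and 0.02867 with all 8 samples in one fit. Leaving out a pair left 1 sample per group, so no p is given for those fits. In these bulk samples fewer Pax7-expressing cells and less Pax7 RNA per cell cannot be told apart.

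Pax3, the paralogue of Pax7 that directs embryonic myogenesis and limb muscle migration (chr1:78101267-78197134, minus strand), was detected in primary myoblasts but had no count in either control C2C12 sample. It had 2 and 0 counts in the Septin9-deficient C2C12 samples and was not tested there. Control primary myoblasts had 93 and 109 counts, or 3.99 and 4.05 CPM, and Septin9-deficient primary myoblasts 82 and 87 counts, or 3.67 and 4.15 CPM. The level in the control primary myoblasts was at least 65.9-fold higher than in the control C2C12 cells, with the latter set to a floor of 3 counts over both libraries. After Septin9 siRNA the primary myoblast groups overlapped, and the log2 fold change was -0.04 ± 0.22 (SE, adjusted p = 0.9601, edgeR).

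Six4, a homeobox factor that acts upstream of the myogenic regulators (chr12:73099609-73113456, minus strand), was measured at 60.4 and 85.4 CPM in C2C12 controls, against 62.0 and 81.3 CPM after Septin9 siRNA. In primary myoblasts the controls had 48.3 and 48.6 CPM and the Septin9-deficient samples 44.0 and 50.2 CPM. The groups overlapped in both cell types, and the pairs moved in opposite directions in both. The log2 fold changes were -0.02 ± 0.07 and -0.04 ± 0.11 (SE, adjusted p = 0.9065 and 0.9145, edgeR). Msc encodes musculin, a basic helix-loop-helix repressor of myogenic factors (chr1:14753346-14755992, minus strand), and was near the detection limit. It had 9 and 16 counts in control and 9 and 22 in Septin9-deficient C2C12 cells, and 1 and 2 counts in control and 1 and 4 in Septin9-deficient primary myoblasts. In C2C12 cells the groups overlapped and the log2 fold change was 0.42 ± 0.45 (SE, adjusted p = 0.6998, edgeR). In primary myoblasts Msc was too low to test. Msc shares 539 exon bases, 21.2% of its exons, with Gm9947 on the other strand, which had 3 and 10 counts in control and 9 and 16 in Septin9-deficient C2C12 cells. Since the strand setting of the counting is not given in the sources used here, reads in the shared bases cannot be told apart.

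The syndecans Sdc3 and Sdc4 are heparan sulphate proteoglycans of the satellite cell surface that serve as co-receptors for growth factors and matrix. Sdc4 (chr2:164424247-164443887, minus strand) stood at 181 and 182 CPM in C2C12 controls, against 201 and 213 CPM after Septin9 siRNA, so that the groups did not overlap and the log2 ratios were 0.15 and 0.23. The control primary myoblasts had 231 and 321 CPM, the Septin9-deficient ones 213 and 256 CPM. There the groups overlapped, although each pair was lower, with log2 ratios of -0.11 and -0.32. The fitted log2 fold changes were 0.19 ± 0.07 for C2C12 cells, and -0.22 ± 0.12 for primary myoblasts (SE, adjusted p = 0.111 and 0.3903, edgeR). With library size alone the adjusted p in C2C12 cells was 0.0387, and with DESeq2 on the batch-corrected counts of the authors it was 0.0361. Sdc3 (chr4:130792537-130826319, plus strand) stood at 193 and 191 CPM in C2C12 controls, against 190.1 and 169.8 CPM after Septin9 siRNA, without overlap. The control primary myoblasts had 152 and 241 CPM, the Septin9-deficient ones 128 and 203 CPM. Both pairs of primary myoblasts gave a log2 ratio of -0.25, and the groups overlapped because the controls lay 0.67 apart on the log2 scale. The log2 fold changes were -0.10 ± 0.07 and -0.24 ± 0.11 (SE, adjusted p = 0.467 and 0.28, edgeR). The count table lists a further entry of Sdc3 with nearly the same counts, 4233 against 4235 in control C2C12 replicate 1, so the level of Sdc3 is uncertain.

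Vcam1, a cell adhesion molecule used to sort satellite cells and a ligand of integrin alpha 4 beta 1 (chr3:116109949-116129688, minus strand), was lower after Septin9 siRNA in primary myoblasts, as Pax7 was. It stood at 125 and 189 CPM in control and at 131 and 190.1 CPM in Septin9-deficient C2C12 cells, where the groups overlapped and the log2 fold change was 0.03 ± 0.07 (SE, adjusted p = 0.8508, edgeR). In primary myoblasts it stood at 89.6 and 106 CPM in control and at 72.2 and 71.4 CPM in Septin9-deficient samples, with no overlap. The log2 ratios there were -0.31 and -0.57, and the fitted log2 fold change was -0.44 ± 0.11 (SE, adjusted p = 0.02495, edgeR). As for Pax7, this was under 1.5-fold, and the adjusted p was 0.08305 with RLE size factors, 0.0638 with library size alone, 0.217 with DESeq2 and 1 without the replicate block. It was 0.003166 with DESeq2 on the batch-corrected counts and 0.02974 with all 8 samples in one fit.

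Cd34, a sialomucin of quiescent satellite cells that is also found on fibro-adipogenic and endothelial cells (chr1:194938819-194961279, plus strand), was lower in both replicate pairs of both cell types. In C2C12 cells it stood at 91.5 and 87.3 CPM in the controls and at 69.8 and 70.3 CPM in the Septin9-deficient samples. The replicates lay close together and the groups did not overlap. The log2 ratios were -0.39 and -0.31 and the fitted log2 fold change was -0.36 ± 0.07 (SE, adjusted p = 0.003195, edgeR), under the 1.5-fold threshold. The adjusted p was 0.003002 with RLE size factors, 0.0006749 with library size alone and 0.000421 with DESeq2 on the batch-corrected counts. It was 0.05466 with DESeq2 on the raw counts, 0.119 with all 8 samples in one fit and 1 without the replicate block. A fit with either pair left out has 1 sample per group, so no p is given for it. In primary myoblasts Cd34 stood at 4.77 and 27.4 CPM in the controls and at 3.67 and 17.5 CPM in the Septin9-deficient samples. Replicate 2 was far above replicate 1 in both groups, by 2.50 and 2.23 on the log2 scale. Within pairs the log2 ratios were -0.37 and -0.64, and the fitted log2 fold change was -0.54 ± 0.15 (SE, adjusted p = 0.0507, edgeR). Without replicate 1 it was -0.64, and without replicate 2 it was -0.38. The adjusted p was 0.02791 with all 8 samples in one fit, 0.01878 with no low count filter and 0.04579 without further copies of genes by edgeR. It was 0.6419 with DESeq2 and 0.1181 with DESeq2 on the batch-corrected counts. By edgeR it was not under 0.05 with RLE size factors, library size alone, at least 10 counts in every sample, or no replicate block.

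Fibroblast markers were also higher in replicate 2 of the primary myoblasts, by amounts that differed between genes. The 8 fibroblast or fibro-adipogenic markers summed to 358.9 and 847.6 CPM in the control and to 327.4 and 1012 CPM in the Septin9-deficient primary myoblasts, and 2 of the 8 were under 1 CPM in all 8 samples. In the C2C12 samples the same markers summed to between 2405 and 3116 CPM, above every primary myoblast sample. Col3a1 alone stood at 2255 and 2936 CPM in the control C2C12 cells. Of the 6 fibroblast markers tested between the controls, 3 had a positive log2 difference, higher in primary myoblasts. Pdgfra, the receptor that defines fibro-adipogenic cells, stood at 1.03 and 31.7 CPM in control and at 0.895 and 32.0 CPM in Septin9-deficient primary myoblasts. Col1a1, encoding a type I collagen chain, stood at 6.83 and 249 CPM in control and at 4.83 and 378 CPM in Septin9-deficient samples. Between the control replicates the log2 gap was 4.83 for Pdgfra and 5.17 for Col1a1, but 1.04 for Ly6a and 0.65 for Col3a1. Within pairs the log2 ratios of Septin9-deficient to control were -0.19 and 0.02 for Pdgfra. They were -0.49 and 0.60 for Col1a1, and 0.22 and 0.27 for Dcn. Pdgfra had a log2 fold change of 0.00 ± 0.17 (SE, adjusted p = 0.9976, edgeR). The part of fibroblastic cells in the level of Cd34 was not tested. The 8 endothelial markers summed to at most 7.83 CPM in any sample, and Tie1 was at 0 in all. The 6 immune markers summed to at most 4.38 CPM and the 5 Schwann cell markers to at most 12.7 CPM. The 6 mural cell markers summed to between 245.6 and 334.3 CPM in the C2C12 samples and between 77.4 and 189 CPM in the primary myoblast samples. Between the controls 2 of the 4 tested had a positive log2 difference, so the sum does not stand for each gene. Among the mural markers is Abcc9, a channel subunit of pericytes that is also found in muscle. In primary myoblasts it stood at 44.0 and 8.84 CPM in control and at 50.2 and 33.1 CPM in Septin9-deficient samples. The log2 fold change was 0.97 ± 0.24 (SE, adjusted p = 0.02545, edgeR), but the groups overlapped. Its log2 ratios were 0.19 in pair 1 and 1.90 in pair 2. By the adjusted p 1 of 4 mural markers tested there passed, against 4.99% of all genes. Of the 4, 3 were positive, and Rgs5 was at -0.39 ± 0.15 (SE, adjusted p = 0.1879, edgeR). Cd34 shares 148 exon bases, 2.03% of its exons, with Gm16897 on the other strand, which stood at 0.944 and 5.43 CPM in the control primary myoblasts, against 0.671 and 4.29 CPM after Septin9 siRNA, and without a known strand setting reads in the shared bases cannot be told apart.

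**Figure D2:**
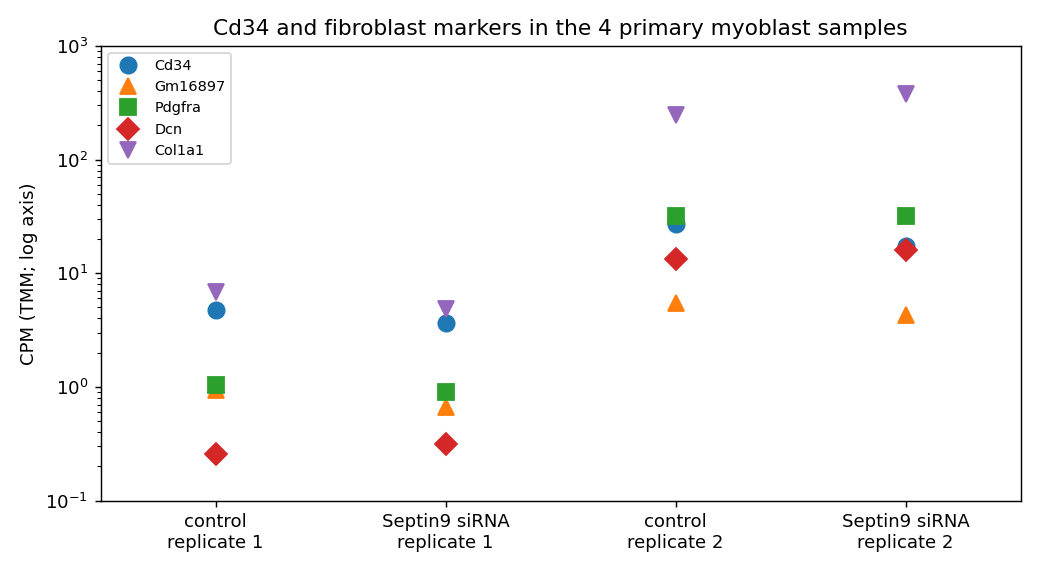
Level (CPM, log axis) of Cd34, its antisense neighbour Gm16897 and the fibroblast markers Pdgfra, Dcn and Col1a1 in each primary myoblast sample, 1 point a gene. All 5 genes stand higher in both replicate 2 samples than in both replicate 1 samples, Cd34 at 27.4 and 17.5 CPM against 4.77 and 3.67 CPM.

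Calcr, the calcitonin receptor that holds satellite cells in quiescence (chr6:3685680-3764714, minus strand), was not detected in C2C12 cells and scarcely in primary myoblasts. It had 0 counts in all 4 C2C12 samples, which allows up to 0.137 and 0.11 CPM in the control and up to 0.14 and 0.125 CPM in the Septin9-deficient libraries, counting error alone considered. Both control primary myoblast samples had 1 count and both Septin9-deficient ones 0, so neither a test nor a fold change was possible.

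**Figure D3:**
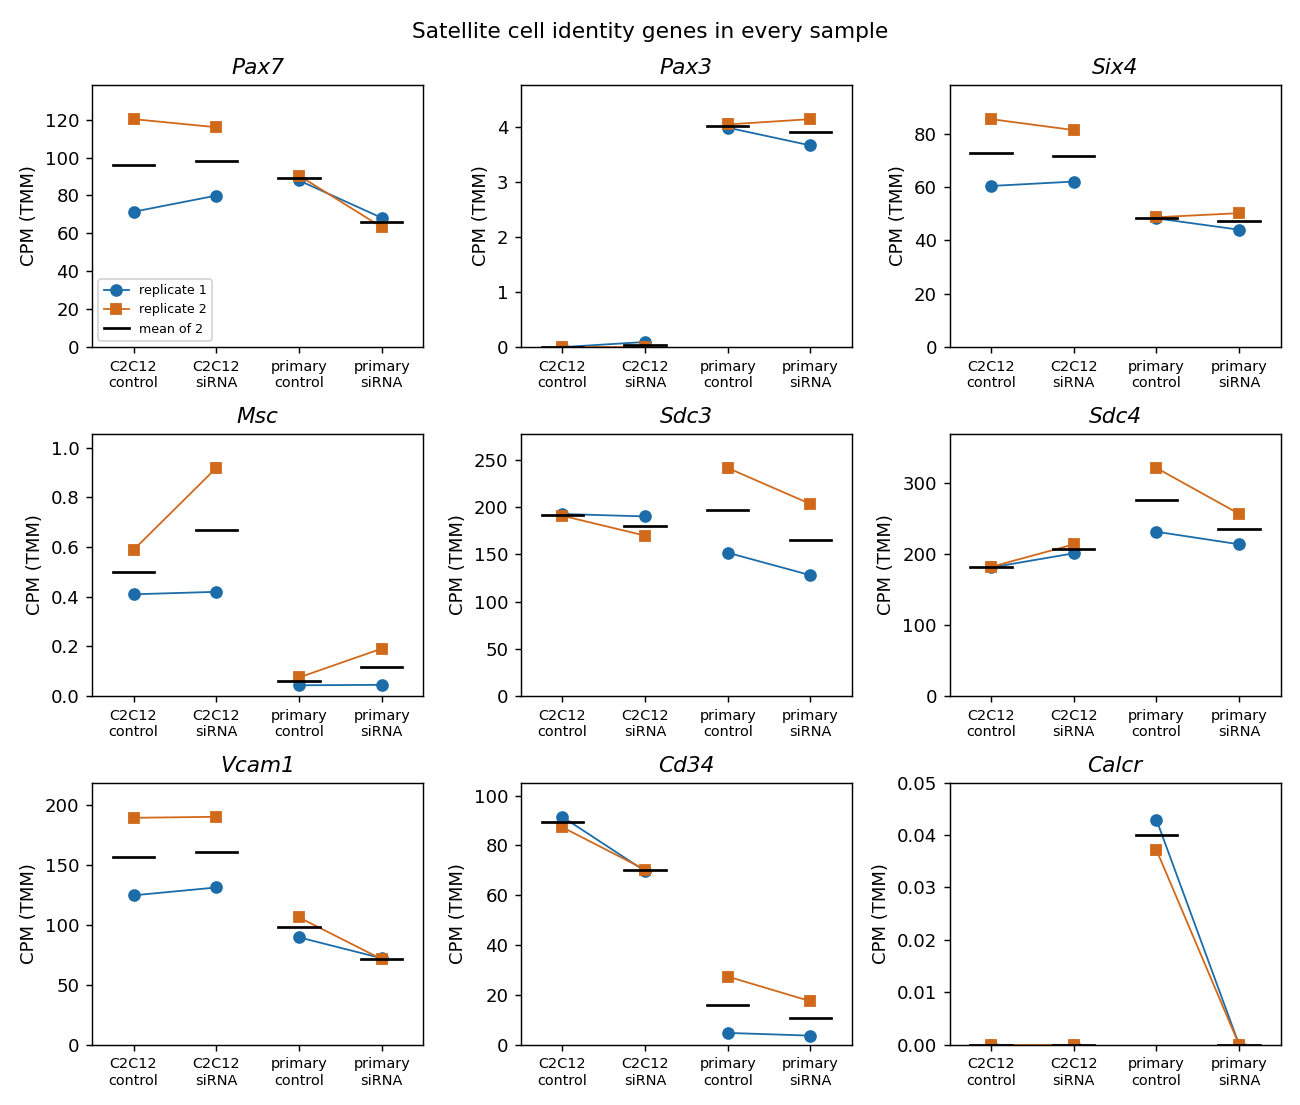
Level (CPM, each axis from 0) of the 9 genes in every sample, with the same replicate number joined by a line and the mean of 2 as a bar. Pax7 and Vcam1 lie lower in both Septin9-deficient primary myoblast samples than in both controls, Cd34 does so in C2C12 cells, and the Calcr points are single counts.

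Across the 9 genes, 7 could be tested in each cell type after a filter on low counts, Pax3 and Calcr being too low in C2C12 cells and Msc and Calcr in primary myoblasts. With an adjusted p under 0.05 and at least a 1.5-fold change, 0 of 7 were called by edgeR in C2C12 cells, where 1.57% of all genes tested were called, and 0 of 7 in primary myoblasts, where 3.17% were called. At an unadjusted p under 0.05 there were 2 of 7 in C2C12 cells and 4 of 7 in primary myoblasts, against 18.7% and 16.7% of all genes. By the adjusted p alone, 1 of 7 (Cd34) was lower in C2C12 cells, where 4.12% of all genes were, and 2 of 7 (Pax7 and Vcam1) were lower in primary myoblasts, where 1.04% were. DESeq2 called 0 of 7 in both cell types. In primary myoblasts 5 of the 7 genes tested were lower in both pairs, as were 29.4% of all genes, and 0 were higher in both, as were 32% of all genes. In C2C12 cells 2 of 7 were lower and 3 of 7 higher in both pairs, against 30.4% and 31.3% of all genes. The groups did not overlap for 3 of 7 genes in C2C12 cells (Sdc4 higher, Sdc3 and Cd34 lower) and for 2 of 7 in primary myoblasts (Pax7 and Vcam1), against 25.4% and 27.8% of all genes. The genes tested had a median log2 fold change of 0.03 in C2C12 cells, and of -0.24 in primary myoblasts, against medians of -0.00079 and 0.01 over all genes tested. The gap between the 2 controls was larger than the fitted change for 4 of 7 genes in C2C12 cells (Pax7, Six4, Msc and Vcam1) and for 3 of 7 in primary myoblasts (Sdc3, Sdc4 and Cd34).

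**Figure D4:**
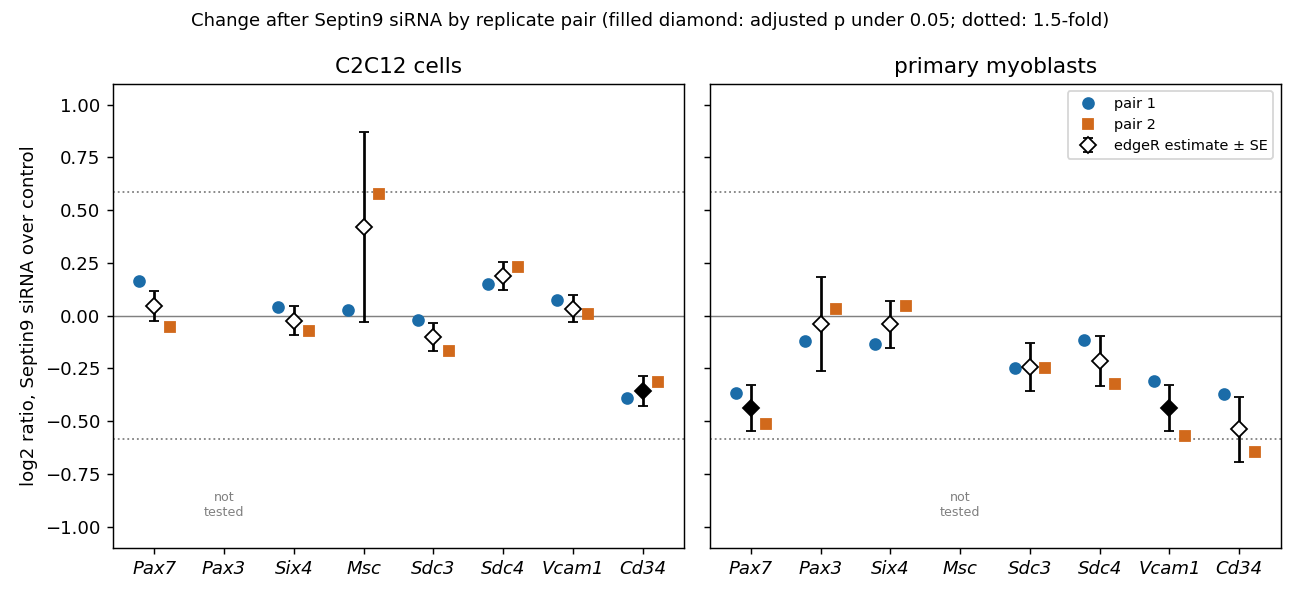
Log2 ratio of Septin9-deficient to control for each replicate pair, with the edgeR estimate ± SE as a diamond, filled where the adjusted p is under 0.05, and the 1.5-fold threshold dotted. Cd34 in C2C12 cells at -0.36 and Pax7 and Vcam1 in primary myoblasts at -0.44 are filled, and none of these lies beyond the dotted line.

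Whether C2C12 cells and primary myoblasts differed in their response to Septin9 siRNA was tested with an interaction term over all 8 samples. By edgeR 0 of 8 genes tested had an adjusted p under 0.05, as did 0% of all 17918 genes tested, while 3 of the 8 and 8.2% of all genes had an unadjusted p under 0.05. DESeq2 called 21 of all genes and none of the 8. The effect in primary myoblasts minus that in C2C12 cells was -0.49 ± 0.13 for Pax7 on the log2 scale (SE, adjusted p = 0.3424, edgeR). It was -0.48 ± 0.13 for Vcam1 and -0.41 ± 0.13 for Sdc4 (SE, adjusted p = 0.3426 and 0.4461, edgeR). For Cd34 the difference was -0.21 ± 0.14 (SE, adjusted p = 0.7484, edgeR). Calcr was too low to test. With no low count filter Pax7 and Vcam1 passed (adjusted p = 0.03706 and 0.04403, edgeR), as did 255 of all 28842 genes then tested. Without primary myoblast replicate 1 a lone pair remained in that cell type, so no p is given for that fit.

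Between the control cultures, Pax3 and Sdc4 were higher and Msc lower in primary myoblasts. These were 3 of 8 genes called, against 37.6% of all genes tested, with an adjusted p under 0.05 and at least a 1.5-fold difference. Pax3 and Msc passed the count filter only through the culture where they are high, so the filter set their direction. With at least 10 counts in every sample only Sdc4 was called, as were 4808 of all 14229 genes then tested. Sdc4 was higher by 0.61 ± 0.19 on the log2 scale (SE, adjusted p = 0.03807, edgeR), but its adjusted p was 0.1823 without control primary myoblast replicate 2, 0.1231 and 0.139 without control C2C12 replicate 1 and replicate 2, and 0.06549 with library size alone. Msc rested on 25 counts in the control C2C12 samples and 3 in the control primary myoblasts, a ratio of 8.51 with a 95% counting interval of 2.6 to 44.0, and its adjusted p was 0.02989 by edgeR and 0.05528 by DESeq2. Leaving out any 1 of the 4 control libraries gave Msc an adjusted p between 0.05989 and 0.1308. Cd34 differed by -2.47 ± 0.89 (SE, adjusted p = 0.0623, edgeR) and ranged from -1.71 without control primary myoblast replicate 1 to -4.22 without replicate 2. With the replicate block it was -2.87 with an adjusted p of 0.02418. Six4 at -0.59 ± 0.21 and Vcam1 at -0.68 ± 0.25 (SE, adjusted p = 0.05796 and 0.06805, edgeR) did not pass the threshold, although their groups did not overlap. By DESeq2 the adjusted p was 0.04764 for Vcam1, 0.0451 for Cd34 and 0.05348 for Six4, and with the replicate block by edgeR it was 0.02559 for Vcam1 and 0.02338 for Six4. Groups without overlap were found for 6 of the 8 genes, and for 74.9% of all genes. Pax7 differed by -0.10 ± 0.27 and Sdc3 by 0.04 ± 0.28 (SE, adjusted p = 0.7798 and 0.9269, edgeR), and for both the control groups overlapped. The sign of the Sdc3 difference turned with library size alone, to -0.02.

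The neighbours of these genes in the satellite cell programme were described from 4 lists. Of 17 satellite cell state genes, markers of quiescent or activated satellite cells and Notch targets, 15 were tested in C2C12 cells and 16 in primary myoblasts. By the adjusted p alone, 5 were higher and 2 lower in C2C12 cells, none of them at 1.5-fold or more, and 4 were higher and 1 lower in primary myoblasts, where 3 of the 4 and the lower one passed 1.5-fold. Of all genes, 6.75% and 4.99% passed the adjusted p in either direction. Their median log2 fold changes were 0.16 and 0.18. Itm2a, a membrane protein of activated satellite cells, rose in primary myoblasts from 103 and 53.4 CPM to 175 and 98.1 CPM, a log2 fold change of 0.83 ± 0.11 (SE, adjusted p = 0.0002806, edgeR). In C2C12 cells it stood under 0.5 CPM and was not tested. The Notch targets Hey1 and Heyl, repressors linked to satellite cell quiescence, rose in primary myoblasts by 0.89 ± 0.18 and 0.75 ± 0.17 on the log2 scale (SE, adjusted p = 0.006293 and 0.01377, edgeR). By DESeq2 the adjusted p was 0.1422 for Hey1 and 0.1587 for Heyl, and Heyl was at 0.34 without replicate 2. In C2C12 cells Hey1 was at 0.69 ± 0.21 and Heyl at 0.58 ± 0.12 (SE, adjusted p = 0.05588 and 0.004185, edgeR). Hes1, the third Notch target of the list, was at 0.01 ± 0.08 in C2C12 cells and at -0.07 ± 0.11 in primary myoblasts (SE, adjusted p = 0.9688 and 0.8189, edgeR), and is named after its values were seen.

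Myf5, the myogenic regulator that Pax7 activates, fell in primary myoblasts from 47.9 and 32.6 CPM to 38.03 and 13.3 CPM. The log2 fold change was -0.78 ± 0.16 (SE, adjusted p = 0.00679, edgeR), and it was -1.29 without replicate 1 and -0.34 without replicate 2. With RLE size factors the adjusted p was 0.07921 and with library size alone 0.0638. In C2C12 cells Myf5 had a log2 fold change of 0.03 ± 0.10 (SE, adjusted p = 0.9181, edgeR). Spry1, an inhibitor of growth factor signalling required for the return to quiescence, changed by 0.28 ± 0.14 on the log2 scale in C2C12 cells, and by 0.54 ± 0.14 on the same scale in primary myoblasts (SE, adjusted p = 0.2845 and 0.02803, edgeR). Islr, a secreted immunoglobulin superfamily protein of activated satellite cells, differed by 0.55 ± 0.09 on this scale (C2C12 cells) and 0.32 ± 0.12 (primary myoblasts) (SE, adjusted p = 0.000792 and 0.1609, edgeR). Spry1 and Islr stayed under 1.5-fold.

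Of 13 Pax partners and targets, 12 were tested in C2C12 cells, where 4 were higher and 0 lower by the adjusted p, and 13 in primary myoblasts, where 2 were higher and 2 lower. Of all genes tested, 2.64% were higher and 4.12% lower in C2C12 cells, and 3.95% higher and 1.04% lower in primary myoblasts. Pitx3, a homeobox factor of myoblasts and differentiating muscle, rose in C2C12 cells from 6.83 and 10.7 CPM to 12.9 and 21.6 CPM, a log2 fold change of 0.97 ± 0.12 (SE, adjusted p = 3.454e-05, edgeR). In primary myoblasts it had 0.20 ± 0.11 (SE, adjusted p = 0.412, edgeR). Of 8 relatives and cofactors of Six4, such as the Eya and Dach families, 1 of 4 tested was lower by the adjusted p in C2C12 cells. In primary myoblasts 0 of 7 passed by edgeR, and 1 of the 7 had an unadjusted p under 0.05, against 16.7% of all genes. Eya4, a coactivator of Six4, had log2 fold changes of -0.06 ± 0.07 and 0.25 ± 0.11 (SE, adjusted p = 0.721 and 0.2556, edgeR).

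Of 18 surface partners, such as other syndecans, the ligands and receptors of Vcam1 and Calcr, and fibronectin, 3 of 15 tested were higher by the adjusted p in C2C12 cells and 0 of 16 passed in primary myoblasts by edgeR, 2 of them with an unadjusted p under 0.05. The shares of all genes were 2.64% higher in C2C12 cells, and 4.99% in either direction in primary myoblasts. There 16.7% of all genes had an unadjusted p under 0.05 by edgeR. Sdc1, the syndecan of cycling myoblasts, had log2 fold changes of 0.30 ± 0.07 (C2C12 cells) and 0.07 ± 0.11 (primary myoblasts) (SE, adjusted p = 0.008866 and 0.8358, edgeR). Sdc2 had -0.12 ± 0.07 and -0.37 ± 0.11 (SE, adjusted p = 0.439 and 0.07473, edgeR). Alongside these lists, the differentiation genes rose in both cell types, with medians of 0.74 and 0.89. With an adjusted p under 0.05 and at least 1.5-fold, 7 of 11 were higher in C2C12 cells and 10 of 11 in primary myoblasts. By the same rule 131 of all 15814 and 491 of all 17117 genes tested were higher. The 8 cell cycle markers had medians of -0.37 and -0.40, and 8 in C2C12 cells and 3 in primary myoblasts were lower by the adjusted p, against 4.12% and 1.04% of all genes. The part of this shift in the levels of Pax7, Vcam1 and Cd34 was not tested.

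**Figure D5:**
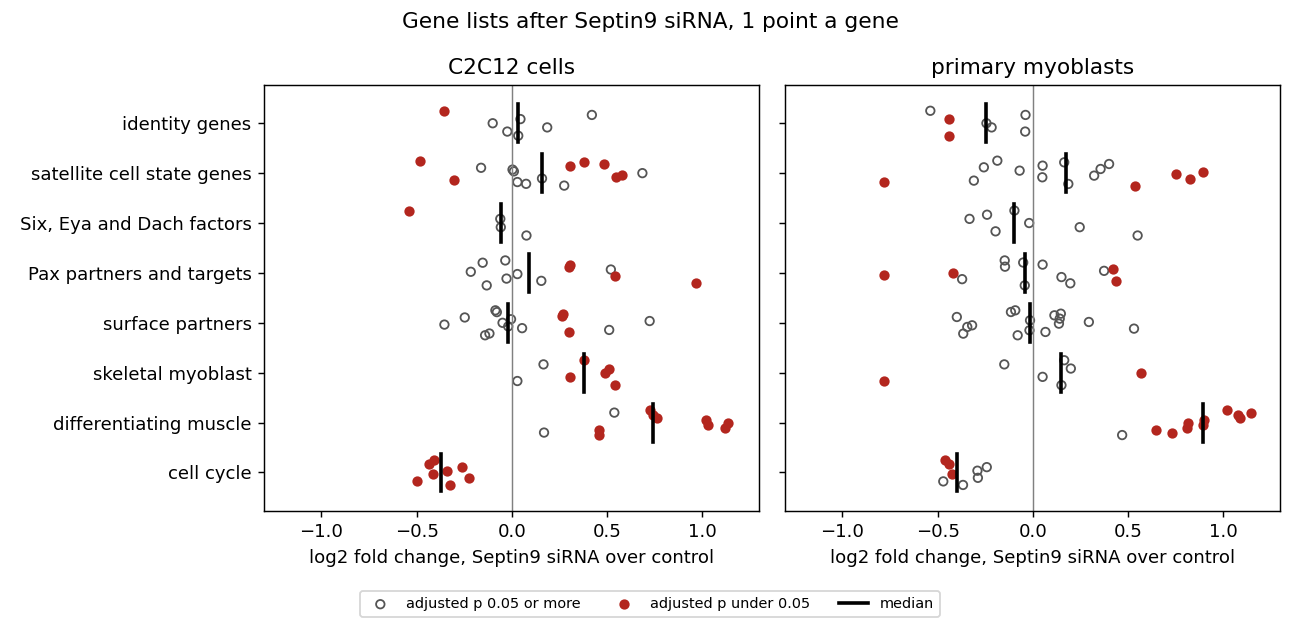
Log2 fold change after Septin9 siRNA of each gene tested, by list, with the median as a bar and genes with an adjusted p under 0.05 filled. The identity genes have medians of 0.03 and -0.24, between the differentiation genes at 0.74 and 0.89 and the cell cycle genes at -0.37 and -0.40.

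The genes whose profile over the 8 samples lay closest to each of the 6 more abundant members were sought among 11507 genes with a mean of at least 5 CPM, by the root mean square (RMS) difference of log2 CPM centred on the gene's mean. For Pax7 these were Sulf2, Kctd6 and Slc25a36, at RMS differences of 0.124, 0.129 and 0.133. For Vcam1 they were Zfp974, Zfp277 and Pygo1 (0.106 to 0.116), and for Six4 they were Rxra, Gigyf1 and Ccser2 (0.0479 to 0.0534). For Sdc3 they were Fam171a1, Sh3kbp1 and Ppp1r18 (0.0547 to 0.0787), and for Sdc4 Gas5, Pter and Simc1 (0.0694 to 0.0879). Cd34 lay closest to its antisense neighbour Gm16897 at 0.104, and Fstl1 and Creb5 followed at 0.330 and 0.342. Since Cd34 and Gm16897 share exon bases and the strand setting is not known, their profiles may rest partly on the same reads. Among the members themselves, Pax7 and Six4 lay closest at 0.225 and Sdc4 and Cd34 farthest apart at 1.86.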

How the data were processed

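RNA was measured by polyA RNA sequencing. The authors mapped reads to GRCm38.p6 with STAR 2.7.2, counted reads per gene with featureCounts 2.0.1 (strand setting not given in the sources used here) and deposited raw counts of the 8 samples. The authors also deposited a normalized signal per cell type, counts adjusted for batch with ComBat-Seq and divided by DESeq2 size factors. Whole reads were recovered from 100% of its values (tolerance 0.01 reads) and used in an alternative. Per the deposited files, 16 broken lines, on which 5 genes are split, were left out, and 2379 entries are named as further copies of genes.

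The members and gene lists were chosen with earlier results of these data known. Samples were grouped by their labels. Each cell type was fitted in R 4.3.3 with edgeR 4.0.16 (filterByExpr, TMM, quasi-likelihood test, two-sided) with the replicate number as a block, since the replicates came from separate experiments whose batch effect the authors also removed. Replicate numbers in the labels gave the pairs, and deviations of same-numbered samples correlated at 0.678 (C2C12 cells) and 0.819 (primary myoblasts). The control cultures were compared in a fit of all 8 samples without a block, and the effects by the interaction term with the block within cell type. P-values were adjusted over all genes by the Benjamini-Hochberg method. SE were computed as the log2 fold change over the root of F, and pair ratios use log2 CPM with a prior count of 2. Lengths and positions are from the GENCODE annotation of GRCm38, promoters from RefSeq. Named genes are the members, Septin9, genes of the 4 pathway lists called in a siRNA comparison, Spry1, Itm2a, Islr, Sdc1, Sdc2 and Eya4, and 3 nearest profiles per member with a mean of at least 5 CPM. One further gene of this rule is not reported here and was left out of its list. The marker genes, Hes1, Gm9947 and Gm16897 were named after their values were seen.

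On simulated data, 84% of genes changed by 1 on the log2 scale were recovered among 15814 in C2C12 cells, 82% among 17117 in primary myoblasts, and, among 17918, 25% between control cultures and 64% for the interaction. The largest fitted change of a member after Septin9 siRNA was -0.54, and the recovery of changes that small was not simulated. Alternatives were RLE size factors, library size alone, other count filters, DESeq2 1.42.0, DESeq2 on the batch-corrected counts, no block, all 8 samples in one fit, only the control samples, no fold threshold, another gene length and leaving out replicates. Leaving out further copies of genes was added after the data were examined. Comparisons rest on 2 replicates per condition, and counting intervals cover counting error only. Python 3.11.15 was used for the other steps.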

Additional observations from a re-analysis of the deposited data

Results flagged for a closer look

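For 2 genes the replicate pairs of the cell types moved in opposite directions, every pair up in C2C12 cells and every pair down in primary myoblasts. For Sdc4 the effect in primary myoblasts minus that in C2C12 cells was -0.41 on the log2 scale, with an unadjusted p of 0.008649 and an adjusted p of 0.4461 for the edgeR interaction term. For Vcam1 it was -0.48, with an unadjusted p of 0.003499 and an adjusted p of 0.3426 by the same edgeR test. The pairs of Vcam1 in C2C12 cells differed from 0 by only 0.07 and 0.01 on the log2 scale. Neither difference passed the correction over 17918 genes.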

How the results depend on the processing

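Counts of called genes among the 9 stood at 0 after Septin9 siRNA in both cell types, 3 between the control cultures and 0 for the difference in effect. Without the fold threshold they were 1 in C2C12 cells (Cd34) and 2 in primary myoblasts (Pax7 and Vcam1), against 6.75% and 4.99% of all genes. Between the control cultures 6 were called with no low count filter, as were 7216 of all 28842 genes then tested. At least 10 counts in every sample gave 1, against 4808 of all 14229 genes (2 of those called before were then not tested). The replicate block gave 5, which added Cd34 and Vcam1, against 7330 of all 17918 genes. With no low count filter 2 were called for the difference in effect (Pax7 and Vcam1), as were 255 of all 28842 genes then tested. Leaving out 1 replicate gave 0 to 1 in primary myoblasts (Cd34 without replicate 1), 1 to 4 between the control cultures (1 without control C2C12 replicate 2) and 0 to 3 for the difference in effect (Sdc4, Vcam1 and Pax7 without primary myoblast replicate 1). Where 1 pair was left out, the lone pair was assumed to vary like the other cell type.

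Without the replicate block 0 genes of all were called in either cell type by edgeR, against 248 in C2C12 cells and 542 in primary myoblasts with it, and no adjusted p of a member was under 1. DESeq2 called 99 and 230. In C2C12 cells all 8 samples in one fit gave 83 calls and the batch-corrected counts 154. In primary myoblasts RLE size factors gave 260 (225 higher, 35 lower) and library size alone 206 (165 higher, 41 lower), against 491 higher and 51 lower before. In C2C12 cells library size alone gave 195 higher and 116 lower, against 131 and 117. Calls with a pair left out are not given, since 1 sample per group remained.

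The sign of small log2 values turned in some settings. Between the control cultures, with library size alone Sdc3 was at -0.0224 and Septin9 at -0.0522, and Septin9 was at -0.00431 with no low count filter and -0.00505 without further copies of genes. Leaving out 1 replicate gave ranges across 0. In C2C12 cells these were -0.0515 to 0.162 for Pax7, -0.0702 to 0.0376 for Six4 and -0.0619 to 0.143 for Myf5. In primary myoblasts they were -0.126 to 0.0416 for Pax3 and -0.138 to 0.0529 for Six4. Between the control cultures they were -0.432 to 0.318 for Pax7, -0.328 to 0.331 for Sdc3 and -0.158 to 0.162 for Septin9. For the difference in effect they were -0.106 to 0.0832 for Six4, -0.351 to 0.903 for Msc and -0.199 to 0.512 for Septin9. None of these passed the threshold, and the causes were not tested. Depth limits Pax3 in C2C12 cells, Msc and Calcr.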
